A study of Mus musculus with 9 samples.

Results

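The proteasome genes of developing CD4 T cells were taken as every gene whose symbol is Psm followed by a letter from a to g and a digit, with symbols that contain -ps left out. This rule found 50 of the 24594 genes in the table, and all 50 matched a protein-coding RefSeq gene by Entrez identifier. It uses the letters of the symbol only. Therefore it also took Psmc3ip, a meiotic recombination factor that is no proteasome subunit, and Psme2b, a close copy of the activator gene Psme2. Of the 50 members, 48 had an RPKM (reads scaled to gene length and library size) of 1 or more in 2 or more libraries and were tested, while Psma8 and Psmb11 did not reach this level.

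RNA was sequenced from 9 libraries of semimature CD4 single-positive thymocytes, sorted as CD4+ CD8- CD69+ Vα2+ Vβ5+, in lethally irradiated mice reconstituted for 4.7 weeks. All sorted cells carried the OT-II transgene, a T cell receptor specific for an ovalbumin peptide on class II MHC. Control OT-II donors were Nr4a1+/+ Nr4a3+/+ and came from B6.Cg-Tg(TcraTcrb)425Cbn/J crossed with BoyJ (F1). Donors labelled DKO were OT-II Nr4a1-/- Nr4a3-/- on C57BL/6, so genotype and strain background cannot be told apart. Every host also received non-transgenic wild-type marrow. WT hosts were BoyJ by the labels, while the methods describe wild-type hosts from the same crosses as the RIPmOVA mice. If the labels hold, host type and strain background cannot be told apart either. RIPmOVA hosts carried Tg(Ins2-TFRC/OVA)296Wehi/WehiJ on C57BL/6, crossed with BoyJ (F1). In them, the rat insulin promoter drives membrane-bound ovalbumin in pancreatic islets and in radioresistant medullary thymic epithelium. There were 2 OT-II and 3 DKO libraries from WT hosts, and 2 OT-II and 2 DKO libraries from RIPmOVA hosts. Same-numbered OT-II and DKO libraries of a host type came from the same mouse. The study pooled male and female mice, and the labels give neither the sex nor the age of these chimeras.

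Each library held 15521120 to 25052091 recovered reads. The 9 markers of CD4 single-positive T cells were all expressed, with a summed level of 1902 to 2209 RPKM. Sums over markers of other cells were lower. The summed level over 6 thymic epithelial markers was 2.75 to 11.8 RPKM, over 6 myeloid markers 2.496 to 20.3 RPKM and over 4 B cell markers 2.68 to 10.4 RPKM. Over 3 double-positive stage markers it was 0.166 to 6.29 RPKM and over 2 NK markers 0.138 to 1.52 RPKM. The sum over 3 erythroid markers was 0.142 to 14.1 RPKM, highest in OT-II replicate 2 and DKO replicate 3 from WT hosts. The myeloid, B cell and double-positive sums were highest in OT-II replicate 1 from RIPmOVA hosts. Lyz2 alone held 18.7 of the 20.3 RPKM of the myeloid sum there. The highest epithelial sum, 11.8 RPKM in DKO replicate 1 from RIPmOVA hosts, held 10.2 RPKM of Epcam. Cd8b1 was at 54.5 to 96.4 RPKM, although Cd8a was at 1.76 to 7.60 RPKM. The whole-gene level of Nr4a1 was 60.7 and 86.1 in OT-II and 60.1, 80.2 and 87.7 RPKM in DKO libraries, all from WT hosts. With RIPmOVA hosts it was 260 and 229 in OT-II and 282 and 235 RPKM in DKO-labelled libraries. For Nr4a3, the RIPmOVA values were 5.66 and 3.72 in OT-II and 16.5 and 14.1 RPKM in DKO-labelled libraries. In WT hosts Nr4a3 was at 0.181 and 0.189 in OT-II and 0.294, 0.665 and 0.188 RPKM in DKO-labelled libraries. Within a mouse, Nr4a1 was slightly lower in the DKO-labelled library of WT mice 1 and 2 and higher in that of both RIPmOVA mice. Neither gene was clearly lower in the libraries labelled DKO. Values per gene do not show where in the gene reads fell, so they did not check the knockout labels. The summed level of 1455 sensory receptor genes, which thymocytes are not known to use, was 472 and 632 RPKM in the 2 DKO libraries from RIPmOVA hosts and 73.0 to 439 RPKM in the other 7.

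The proteasome degrades proteins tagged with ubiquitin. Its core particle is a stack of rings of alpha and beta subunits, and a regulatory particle of ATPases and lid subunits binds and unfolds the substrate. The standard catalytic beta subunits Psmb6, Psmb7 and Psmb5 can be replaced by the interferon-inducible immunoproteasome subunits Psmb9, Psmb10 and Psmb8, which are abundant in lymphoid cells and shape the peptides shown on class I MHC. Cortical thymic epithelial cells use Psmb11 in place of Psmb5, and the peptides made in this way contribute to positive selection of CD8 T cells.

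The members were expressed strongly and evenly. Their median level over the 9 libraries was 40.2 RPKM, against 6.56 RPKM over all 11569 genes tested. The median coefficient of variation across the 9 libraries, regardless of group, was 7.82% for the 48 members and 15.5% for all genes tested. In 40 of 48 members (83.3%) the highest library was within 1.5 times the lowest, which held for 41.3% of all genes tested, and no tested member spanned more than 2 times. The sets were not matched on level, and higher genes are measured with less counting error. Together, the 50 members took up 1.10% to 1.27% of the summed RPKM of a library. By group this share was 1.18% ± 0.012 (SD, n = 2) for OT-II and 1.20% ± 0.084 (n = 3) for DKO in WT hosts, and 1.23% ± 0.055 (n = 2) for OT-II and 1.20% ± 0.032 (n = 2) for DKO in RIPmOVA hosts. The SD among the 3 DKO libraries from WT hosts was wider than the distance between any pair of these group means, and no test was run on the shares.

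**Figure D1:**
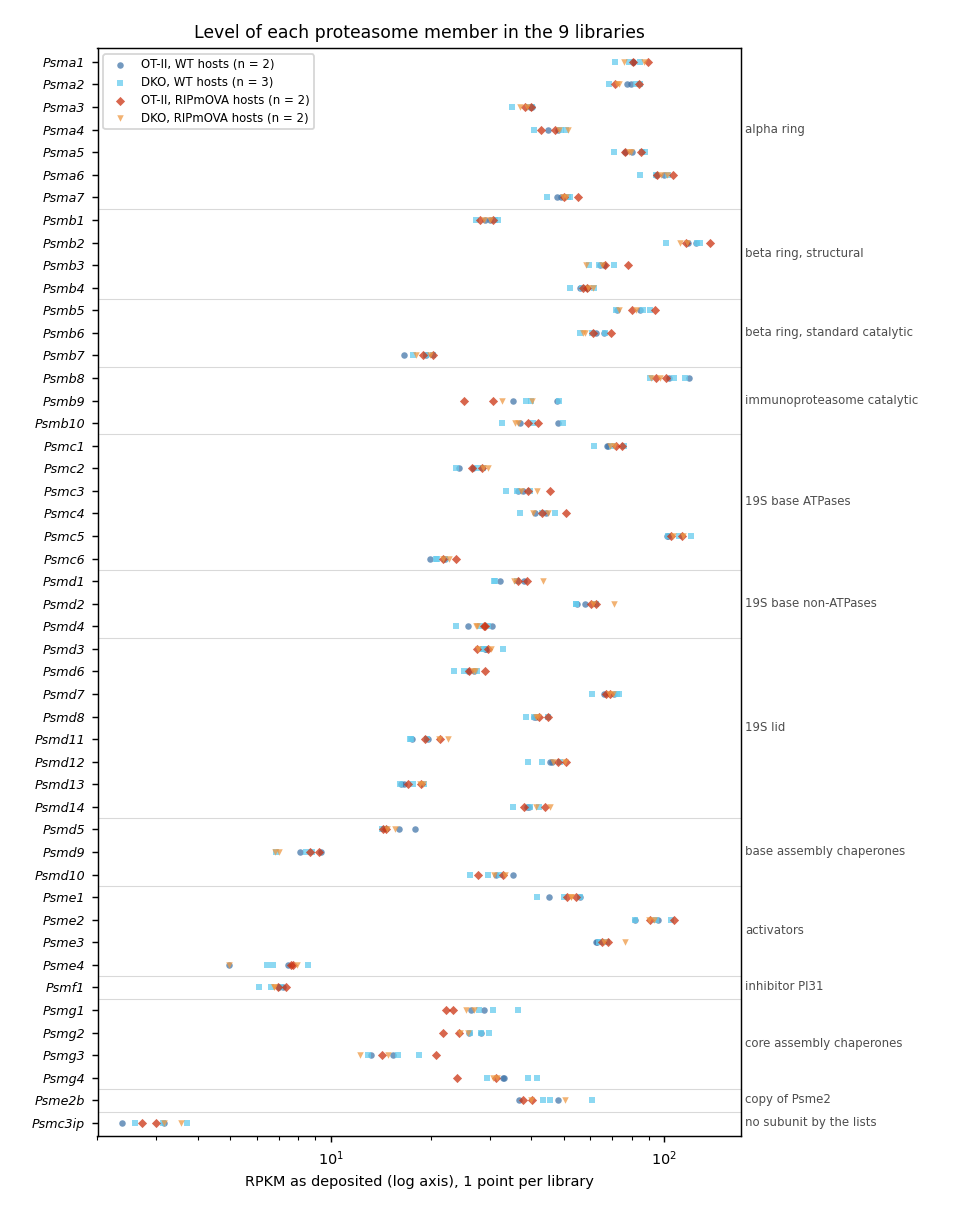
Deposited RPKM of the 48 tested members (log axis) in the 9 libraries, with members sorted by role and 1 point per library coloured by group. The groups lie on top of each other for most members. Psmb9 has the widest relative spread, with a coefficient of variation of 20.3%, and Psma3 the narrowest, with 4.48%.

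Comparisons of level between members depend on what is taken as gene length. The deposited length equalled the sum of all distinct annotated exons for 42 of 50 members and for 79.3% of the genes found in GENCODE vM21, and the union of exons for 24.6%. Overlapping exon variants are thus counted more than once, and a gene with many annotated isoforms gets a lower RPKM. For Psme1, the deposited length was 6549 bases, while its principal protein-coding transcript has 1112 bases. A second level was therefore computed with the length of the principal transcript, an alternative chosen after the data were seen. Fold changes of a gene between groups are the same on both scales, apart from the pseudocount.

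**Figure D2:**
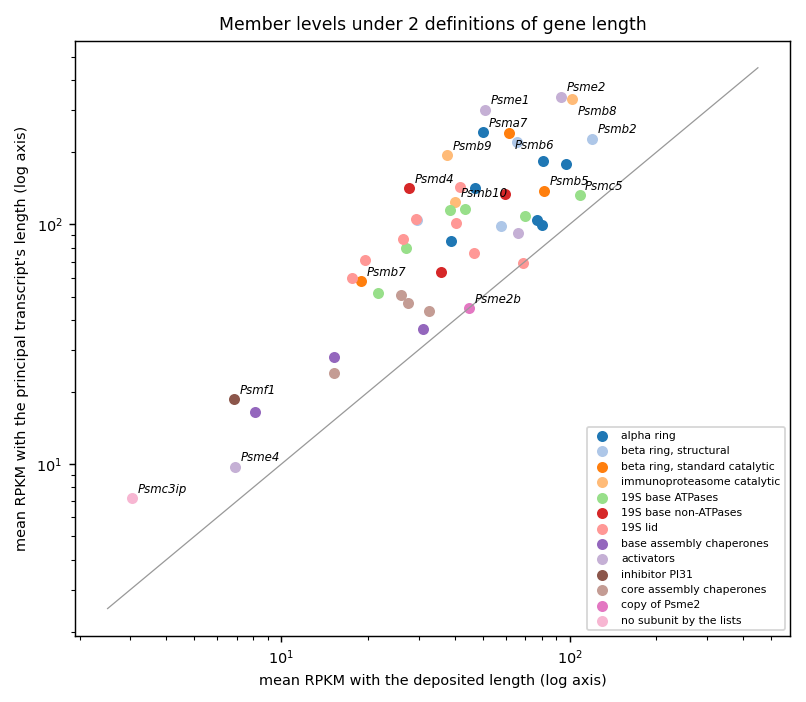
Mean level of the 48 tested members over the 9 libraries with the deposited gene length (x axis, RPKM, log) and with the length of the principal transcript (y axis, RPKM, log), coloured by role. The diagonal marks equal values. Psme1 moves from 51.0 to 301 RPKM and Psmb9 from 37.6 to 194 RPKM, whereas Psmc5 moves from 108 to 132 RPKM.

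Among the alpha ring subunits, which form the gate of the core particle, 7 of 8 were tested and lay between 38.7 RPKM (Psma3) and 97.6 RPKM (Psma6) in the mean over libraries. Psma6 was at 99.7 and 94.3 in OT-II and at 94.7, 84.7 and 103 RPKM in DKO from WT hosts, and at 107 and 95.1 in OT-II and 102 and 97.7 RPKM in DKO from RIPmOVA hosts. Psma3 was at 39.6 and 40.1 in OT-II and at 40.1, 34.9 and 39.3 RPKM in DKO from WT hosts, and at 39.9 and 38.3 in OT-II and 38.7 and 37.0 RPKM in DKO from RIPmOVA hosts. For Psma6 the libraries of all 4 groups overlapped. For Psma3 OT-II and DKO overlapped within each host type, and the 2 host types overlapped within each genotype. Psma8, an alpha subunit best known from the testis, was at 0.094 and 0.054 in OT-II and 0.086, 0.145 and 0.075 RPKM in DKO from WT hosts, and at 0.025 and 0.156 in OT-II and 0.184 and 0.192 RPKM in DKO from RIPmOVA hosts. This was 2 to 18 reads per library.

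Of the 4 structural beta subunits, which hold the beta ring together without a catalytic site, Psmb2 was the highest and Psmb1 the lowest. Psmb2 was at 124 and 118 in OT-II and 126, 101 and 128 RPKM in DKO from WT hosts, and at 137 and 116 in OT-II and 117 and 112 RPKM in DKO from RIPmOVA hosts. Psmb1 was at 30.1 and 29.0 in OT-II and 31.04, 27.2 and 31.7 RPKM in DKO from WT hosts, and at 30.6 and 28.05 in OT-II and 30.04 and 28.9 RPKM in DKO from RIPmOVA hosts. With the deposited length, Psmb2 was the highest of all 50 members. With the principal transcript's length it was the sixth, after Psme2, Psmb8, Psme1, Psma7 and Psmb6.

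The 3 standard catalytic subunits were expressed at different levels. Psmb5, which carries the chymotrypsin-like site, was at 72.0 and 84.4 in OT-II and 86.6, 71.6 and 90.8 RPKM in DKO from WT hosts, and at 93.7 and 80.2 in OT-II and 82.3 and 73.4 RPKM in DKO from RIPmOVA hosts. Psmb6, which carries the caspase-like site, was at 65.9 and 62.3 in OT-II and 61.0, 55.8 and 66.7 RPKM in DKO from WT hosts. In RIPmOVA hosts it was at 69.1 and 61.1 in OT-II and at 58.0 and 57.1 RPKM in DKO. No library of DKO from RIPmOVA hosts reached the lower OT-II value there for Psmb6, nor the lower OT-II value in WT hosts. In the comparisons of hosts and in that of genotypes in WT hosts, Psmb6 overlapped. Psmb7, which carries the trypsin-like site, was at 16.6 and 19.4 in OT-II and 19.4, 17.7 and 20.3 RPKM in DKO from WT hosts, and at 20.3 and 18.9 in OT-II and 19.9 and 18.0 RPKM in DKO from RIPmOVA hosts. On the principal transcript scale the means were 138 RPKM for Psmb5, 241 RPKM for Psmb6 and 58.1 RPKM for Psmb7, so the order of Psmb5 and Psmb6 turned with the length used.

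All 3 immunoproteasome catalytic subunits were well expressed, and they included the most variable of the 48 tested members. Psmb8, the counterpart of Psmb5, was at 119 and 103 in OT-II and 115, 90.8 and 107 RPKM in DKO from WT hosts, and at 101 and 94.7 in OT-II and 91.4 and 97.4 RPKM in DKO from RIPmOVA hosts. Psmb10, the counterpart of Psmb7, was at 48.0 and 36.8 in OT-II and 49.6, 32.7 and 40.4 RPKM in DKO from WT hosts, and at 41.9 and 39.1 in OT-II and 35.8 and 36.6 RPKM in DKO from RIPmOVA hosts. Psmb9, the counterpart of Psmb6, was at 47.6 and 35.3 in OT-II and 48.5, 38.7 and 40.0 RPKM in DKO from WT hosts, and at 25.1 and 30.6 in OT-II and 32.7 and 40.0 RPKM in DKO from RIPmOVA hosts. Both OT-II libraries from RIPmOVA hosts were below all 7 other libraries for Psmb9. The gene lies at chr17:34182030-34187330 of GRCm38, 225 bases from the peptide transporter gene Tap1 in RefSeq. In GENCODE vM21 some of its exons overlap those of Tap1 on the other strand. Strand use in counting was not stated, so reads of both genes cannot be told apart there. Tap1 itself was at 33.3 and 37.7 RPKM in those 2 libraries and at 34.6 to 49.6 RPKM in the other 7. Like Psmb9, Tap1 was highest in both libraries of WT host mouse 1 and lowest in OT-II replicate 1 from RIPmOVA hosts. Its value in OT-II replicate 2 from RIPmOVA hosts was, unlike that of Psmb9, not below all libraries from WT hosts. The part of Tap1 reads in the Psmb9 values was not tested.

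The 250 bases before the RefSeq start of 3 catalytic genes are shown because Psmb5 and Psmb8 are a standard and an immunoproteasome subunit for the same site and Psmb9 was the most variable of the tested members. They come from RefSeq on GRCm38.p6, run 5′ to 3′ on the gene's strand, and capitals mark matches to the motifs searched.
Psmb5: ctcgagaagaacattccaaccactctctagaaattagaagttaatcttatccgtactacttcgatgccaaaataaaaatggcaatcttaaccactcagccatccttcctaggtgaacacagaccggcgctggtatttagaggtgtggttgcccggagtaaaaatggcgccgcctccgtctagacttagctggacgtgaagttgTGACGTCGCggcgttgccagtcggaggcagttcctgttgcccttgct
Psmb8: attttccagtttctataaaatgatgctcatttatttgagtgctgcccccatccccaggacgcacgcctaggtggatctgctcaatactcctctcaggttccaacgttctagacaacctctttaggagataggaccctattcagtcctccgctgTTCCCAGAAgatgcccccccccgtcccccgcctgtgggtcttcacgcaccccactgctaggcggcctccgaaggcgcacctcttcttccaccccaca
Psmb9: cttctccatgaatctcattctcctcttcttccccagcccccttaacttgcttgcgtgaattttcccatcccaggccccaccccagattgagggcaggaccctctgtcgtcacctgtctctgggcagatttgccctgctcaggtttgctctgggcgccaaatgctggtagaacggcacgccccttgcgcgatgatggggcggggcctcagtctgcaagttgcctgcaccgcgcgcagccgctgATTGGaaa
These windows lie at chr14:54617996-54618245 on the minus strand for Psmb5, chr17:34197945-34198194 on the plus strand for Psmb8 and chr17:34187331-34187580 on the minus strand for Psmb9. The capitals mark TGACNNNGC, the core of the antioxidant response element, in Psmb5, TTCNNNGAA, a gamma-activated site, in Psmb8 and CCAAT, read on the other strand as ATTGG, in Psmb9.

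Promoter windows of 300 bases (250 before and 50 after the start) were found for 42 of the 50 members, and 5 motifs were searched on both strands. The NBRE, AAAGGTCA, is the site bound by Nr4a factors as monomers. It was in the windows of 0 of 42 members and of 1.70% of all 27025 genes with a window. The antioxidant response core was found in 6 members (14.3%; all genes 14.0%), among them Psmb5, Psmb6 and Psmc6, and CCAAT in 15 (35.7%; all genes 41.1%). The interferon-stimulated response core, GAAANNGAA, was found in 7 members (16.7%; all genes 9.76%; 7.14% against 8.18% before the start alone), among them Psme1, Psmb3 and Psmb4. TTCNNNGAA was found in 3 members (7.14%; all genes 9.55%), which were Psmb8, Psmd2 and Psmg1. These are matches of letters in a window and not sites of binding.

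Each immunoproteasome subunit was then set against its standard counterpart within a library, on the deposited scale. The ratio of Psmb9 to Psmb6 was 0.722 and 0.567 for OT-II and 0.795, 0.693 and 0.599 for DKO from WT hosts, and 0.363 and 0.501 for OT-II and 0.564 and 0.701 for DKO from RIPmOVA hosts. Both OT-II libraries from RIPmOVA hosts had the lowest values. This ratio uses the same Psmb9 values as above, so it is not a separate observation. The ratio of Psmb8 to Psmb5 was between 1.08 and 1.65 and that of Psmb10 to Psmb7 between 1.80 and 2.89, with overlapping groups apart from Psmb10 to Psmb7 between OT-II and DKO in RIPmOVA hosts (2.06 and 2.07 against 1.80 and 2.03) and Psmb8 to Psmb5 between OT-II in both hosts (1.65 and 1.22 in WT, 1.08 and 1.18 in RIPmOVA). With the principal transcript's length, Psmb9 to Psmb6 ranged from 0.482 to 1.06, Psmb10 to Psmb7 from 1.81 to 2.91 and Psmb8 to Psmb5 from 2.09 to 3.18. These are ratios of RNA and do not give the makeup of assembled particles. No test was run on them.

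**Figure D3:**
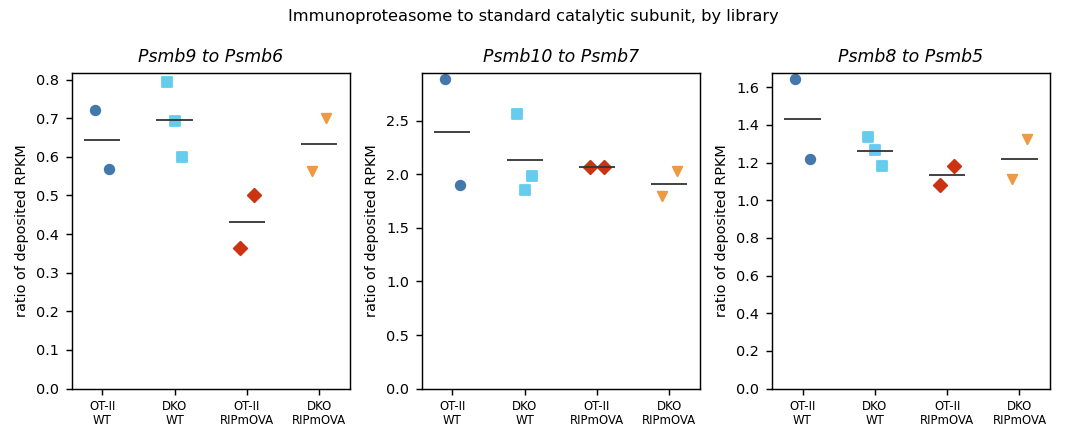
Ratio of deposited RPKM of each immunoproteasome subunit to its standard counterpart (y axis from 0, no unit) in every library, by group, with a line at the group mean. For Psmb9 to Psmb6 the 2 OT-II libraries from RIPmOVA hosts, at 0.363 and 0.501, lie below all others.

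Psmb11, the thymoproteasome subunit of cortical epithelium and a neighbour of Psmb5 on chromosome 14, was close to absent. It was at 0.121 and 0.092 in OT-II and 0, 0.128 and 0.066 RPKM in DKO from WT hosts, and at 0.043 and 0.049 in OT-II and 0.115 and 0.229 RPKM in DKO from RIPmOVA hosts. The library at 0 allows up to 0.029 RPKM by a floor of 3 reads, which covers counting error only. The highest value, 0.229 RPKM or 17 reads, was in the library with the highest summed level of sensory receptor genes, 632 RPKM, and the part of this background in it was not tested.

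The regulatory particle was expressed in the same range as the core. Of the 6 base ATPases, which unfold the substrate, Psmc5 was the highest and Psmc6 the lowest. Psmc5 was at 102 and 103 in OT-II and 111, 103 and 121 RPKM in DKO from WT hosts, and at 113 and 105 in OT-II and 114 and 106 RPKM in DKO from RIPmOVA hosts. Psmc6 was at 19.9 and 22.1 in OT-II and 20.8, 20.7 and 22.0 RPKM in DKO from WT hosts, and at 23.8 and 21.8 in OT-II and 21.8 and 22.6 RPKM in DKO from RIPmOVA hosts. Both genes had nearly flat levels across the libraries. On the principal transcript scale, Psmc5 was at 132 and Psmc6 at 51.9 RPKM.

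Psmd2, a scaffold subunit of the base, was at 57.8 and 54.9 in OT-II and 54.5, 54.2 and 62.6 RPKM in DKO from WT hosts, and at 60.5 and 62.5 in OT-II and 70.8 and 61.4 RPKM in DKO from RIPmOVA hosts. Psmd4, a ubiquitin receptor, was at 30.4 and 25.9 in OT-II and 28.1, 23.7 and 29.7 RPKM in DKO from WT hosts, and at 29.0 and 28.8 in OT-II and 27.5 and 27.2 RPKM in DKO from RIPmOVA hosts. The deposited length of Psmd4 was 5.08 times that of its principal transcript, and with the latter its mean level (141 RPKM) was above that of Psmd2 (134 RPKM). In the lid, Psmd7 was the highest of 8 subunits, at 70.9 and 66.1 in OT-II and 72.4, 60.9 and 73.3 RPKM in DKO from WT hosts, and at 69.0 and 66.9 in OT-II and 70.5 and 68.4 RPKM in DKO from RIPmOVA hosts. Psmd13 was the lowest, at 16.6 and 16.2 in OT-II and 17.7, 16.1 and 19.1 RPKM in DKO from WT hosts, and at 18.7 and 17.1 in OT-II and 18.95 and 18.5 RPKM in DKO from RIPmOVA hosts. Both lid genes overlapped between DKO and OT-II in either host. The order of Psmd7 and Psmd13 held on the principal transcript scale (68.7 and 59.96 RPKM), but Psmd8 was then the highest lid subunit (143 RPKM).

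Among the chaperones of base assembly, Psmd10 (gankyrin) was at 35.1 and 31.3 in OT-II and 29.6, 26.2 and 32.2 RPKM in DKO from WT hosts, and at 32.8 and 27.7 in OT-II and 33.4 and 30.9 RPKM in DKO from RIPmOVA hosts. Psmd9 was at 9.36 and 8.11 in OT-II and 8.79, 6.87 and 8.45 RPKM in DKO from WT hosts, and at 9.20 and 8.69 in OT-II and 6.82 and 6.98 RPKM in DKO from RIPmOVA hosts. For Psmd9, OT-II and DKO did not overlap in RIPmOVA hosts but did in WT hosts. The chaperones of core assembly ran from Psmg3 to Psmg4. Psmg4 was at 32.8 and 33.0 in OT-II and 41.7, 29.5 and 39.0 RPKM in DKO from WT hosts, and at 31.3 and 23.8 in OT-II and 30.7 and 31.4 RPKM in DKO from RIPmOVA hosts. Psmg3 was at 13.2 and 15.3 in OT-II and 18.3, 12.9 and 15.9 RPKM in DKO from WT hosts, and at 20.7 and 14.2 in OT-II and 14.8 and 12.3 RPKM in DKO from RIPmOVA hosts. Psmg3 and Psmg4 rested on fewer reads than the ring subunits, 282 to 617 and 378 to 755 per library, and varied more, by 17.9% and 16.0%.

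Among the activators, the interferon-inducible pair Psme1 and Psme2 was high and Psme4 low. Psme2 was at 95.9 and 81.7 in OT-II and 105, 81.8 and 94.8 RPKM in DKO from WT hosts, and at 107 and 90.5 in OT-II and 90.3 and 93.1 RPKM in DKO from RIPmOVA hosts. Psme4, which encodes PA200, was at 4.96 and 7.43 in OT-II and 6.71, 8.53 and 6.46 RPKM in DKO from WT hosts, and at 7.73 and 7.62 in OT-II and 7.92 and 4.97 RPKM in DKO from RIPmOVA hosts. With the principal transcript's length, Psme2 (341 RPKM), Psmb8 (335 RPKM) and Psme1 (301 RPKM) were the 3 highest members. Psmf1, the inhibitor PI31, was at 7.22 and 6.99 in OT-II and 6.63, 6.11 and 7.04 RPKM in DKO from WT hosts, and at 6.93 and 7.37 in OT-II and 6.78 and 6.77 RPKM in DKO from RIPmOVA hosts.

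The 2 members taken by their letters alone differed in level. Psmc3ip was at 3.17 and 2.38 in OT-II and 3.15, 2.59 and 3.71 RPKM in DKO from WT hosts, and at 3.00 and 2.73 in OT-II and 3.16 and 3.55 RPKM in DKO from RIPmOVA hosts, the lowest of the 48 tested. Psme2b was at 48.1 and 36.7 in OT-II and 60.9, 43.4 and 45.6 RPKM in DKO from WT hosts, and at 37.8 and 40.1 in OT-II and 39.8 and 50.6 RPKM in DKO from RIPmOVA hosts. Reads of a near-identical copy can be split between Psme2 and Psme2b, so both values are uncertain. Exons of another gene overlapped those of 15 of the 50 members, among them Psmb9 (Tap1), Psme1 (Emc9), Psmb7 (Nek6) and Psmd13 (Sirt3), all on the other strand.

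The first question was whether meeting the self-antigen in RIPmOVA hosts, compared with WT hosts, moved these genes in OT-II thymocytes. No member passed. By limma, with Benjamini-Hochberg adjusted p-values over the 11569 genes tested, 0 of 48 members reached an adjusted p of 0.05, where 1.89% of all genes did, and 0 of 48 also reached an absolute log2 fold change of 1, where 1.23% did. At an unadjusted p under 0.05 there were 3 of 48 members (all genes 14.3%), which were Psmb9, Psmg2 and Psmd5. With limma-voom on the recovered reads, 0 members were called in this and in each comparison that follows. The lowest adjusted p was that of Psmb9, with a log2 fold change on the log2(RPKM + 0.5) scale of -0.56 (SE 0.18, 95% interval -0.96 to -0.16, adjusted p = 0.18), lower in both RIPmOVA libraries than in both WT libraries. Psmg2, a core assembly chaperone, had a log2 fold change of -0.24 (SE 0.10, adjusted p = 0.34). For Psmd5, a base assembly chaperone, it was -0.21 (SE 0.094, adjusted p = 0.35). Of the 3 immunoproteasome subunits, Psmb8 had -0.17 (SE 0.12) and Psmb10 -0.05 (SE 0.18). The standard subunits had 0.15 (Psmb5, SE 0.14), 0.02 (Psmb6, SE 0.11) and 0.12 (Psmb7, SE 0.11). The Psmb9 value weakened to -0.35 (adjusted p = 0.60) without the 2 libraries of WT host mouse 1, an alternative added after the data were seen, and its adjusted p was 0.053 to 0.64 over all alternatives.

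In the same comparison the medians lay near 0. The median log2 fold change was 0.06 over the 48 members and -0.02 over all genes tested, with 33 members above 0 and 15 below (46.5% of all genes were above 0). Without OT-II replicate 1 from RIPmOVA hosts, 24 were above and 24 below 0, and without OT-II replicate 2 from WT hosts 25 and 23. By role, all 6 base ATPases (0.09 to 0.18), all 3 base non-ATPases (0.04 to 0.13) and all 4 activators (0.07 to 0.31) had values above 0. So did all 3 standard catalytic subunits (0.02 to 0.15). All 3 immunoproteasome subunits were below 0, and none of these members passed the test. These directions were the same after median-of-ratios rescaling and after quantile normalization. They did not all hold with 1 library left out, where Psmb10 ranged from -0.24 to 0.13 and Psmb6 from -0.068 to 0.11. Groups did not overlap for 17 of 48 members, 11 higher and 6 lower, which is 35.4% against 41.6% of all genes. Lyz2, a myeloid marker, was at 7.54 and 1.65 RPKM in WT and at 18.7 and 8.44 RPKM in RIPmOVA hosts. Its log2 fold change was 1.66 (adjusted p = 0.23 by limma), and that of the myeloid marker Cd68 was 0.21 (adjusted p = 0.81). The other myeloid markers were below 1 RPKM in all these libraries and were not tested. Of them, Itgax, Flt3 and Siglech had lower means in RIPmOVA hosts and Csf1r a higher one. The part of myeloid RNA in the members' values was not tested.

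The second comparison was between the same hosts in DKO-labelled thymocytes. Again 0 of 48 members reached an adjusted p of 0.05 by limma (all genes 3.35%) and 0 of 48 met both limits (all genes 1.68%), with 1 member at an unadjusted p under 0.05 (all genes 17.6%). This was the lid subunit Psmd11, at 17.4, 17.3 and 19.4 RPKM in WT and 22.6 and 21.1 RPKM in RIPmOVA hosts. Its log2 fold change was 0.27 (SE 0.097, adjusted p = 0.20). Psmb9 had -0.22 (SE 0.16, adjusted p = 0.49), with overlapping groups, and -0.074 to -0.36 when 1 library was left out. Psmb8 had -0.14 (SE 0.11) and Psmb10 -0.16 (SE 0.17). The standard subunits had -0.09 (Psmb5, SE 0.13), -0.08 (Psmb6, SE 0.096) and -0.01 (Psmb7, SE 0.10). The median over members was 0.01, with 26 above and 22 below 0 (all genes: median 0.03, 54.4% above 0). Without DKO replicate 2 from WT hosts, 16 were above and 32 below 0. With background reads as a covariate the split was 34 and 14, and after quantile normalization 35 and 13. All 4 core assembly chaperones (-0.26 to -0.16), all 3 immunoproteasome subunits (-0.22 to -0.14) and all 3 standard catalytic subunits (-0.09 to -0.01) had values below 0. All 3 base non-ATPases (0.02 to 0.26) were above 0, and none of these members passed the test. After quantile normalization 2 of the standard catalytic subunits were above 0, and after median-of-ratios rescaling 1 base non-ATPase was below 0. Groups did not overlap for 4 of 48 members (8.33%), against 40.0% of all genes. The summed level of sensory receptor genes was 159, 439 and 111 RPKM in DKO from WT hosts and 472 and 632 RPKM in DKO from RIPmOVA hosts, so it separates these groups as well. Epcam, a thymic epithelial marker, was at 2.51, 2.65 and 2.24 RPKM in DKO from WT and at 10.2 and 5.78 RPKM in DKO from RIPmOVA hosts (log2 fold change 1.47, adjusted p = 0.013 by limma). The other epithelial markers, Krt5, Krt8, Foxn1, Aire and Psmb11, were at 0 to 1.11 RPKM in the 9 libraries, too low to be tested. In DKO from RIPmOVA hosts, the mean of Krt5 was lower than in WT hosts. The means of Krt8, Foxn1, Aire and Psmb11 were higher. The part of epithelial RNA in the members' values was not tested. With the background as a covariate, 0 members were called.

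The third comparison asked whether loss of Nr4a1 and Nr4a3 as labelled moved these genes where the self-antigen was present. Between DKO and OT-II libraries from RIPmOVA hosts, 0 of 48 members reached an adjusted p of 0.05 by limma (all genes 2.21%), 0 of 48 met both limits (all genes 1.07%) and 1 had an unadjusted p under 0.05 (all genes 21.4%). That member was Psmd9, with a log2 fold change of -0.35 (SE 0.14, adjusted p = 0.19). Psmb9 was next, at 0.38 (SE 0.18, 95% interval -0.02 to 0.78, adjusted p = 0.25), higher in both DKO than in both OT-II libraries. This value and that of Psmb9 between hosts in OT-II rest on the same 2 OT-II libraries from RIPmOVA hosts. Psmb8 had -0.05 (SE 0.12) and Psmb10 -0.16 (SE 0.18). The 3 standard subunits had -0.16 (Psmb5, SE 0.14), -0.17 (Psmb6, SE 0.11) and -0.05 (Psmb7, SE 0.11). The median over members was -0.03, with 21 above and 27 below 0 (all genes: 56.4% above 0). This split had no fixed direction, with 35 above and 13 below 0 with background reads as a covariate, 26 and 22 after quantile normalization, 17 and 31 after median-of-ratios rescaling, and 31 and 17 without OT-II replicate 1 from RIPmOVA hosts. Groups did not overlap for 16 of 48 members, 8 each way, which is 33.3% against 59.0% of all genes. The background reads on sensory receptor genes move with genotype in these hosts, and the 2 cannot be told apart there.

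The last pair of groups was DKO and OT-II from WT hosts, which lack the antigen. Again 0 of 48 members reached an adjusted p of 0.05 by limma (all genes 0.0692%), 0 of 48 met both limits (all genes 0.0605%) and 1 had an unadjusted p under 0.05 (all genes 7.89%). Psmd5 was at 17.9 and 16.0 in OT-II and 14.3, 14.7 and 14.5 RPKM in DKO, without overlap. Its log2 fold change was -0.22 (SE 0.086, adjusted p = 0.57). The 6 catalytic subunits lay between -0.09 (Psmb8, SE 0.11) and 0.09 (Psmb7, SE 0.10), with Psmb9 at 0.04 (SE 0.16), Psmb10 at -0.06 (SE 0.17), Psmb5 at 0.08 (SE 0.13) and Psmb6 at -0.07 (SE 0.096). The median over members was 0.01, with 25 above and 23 below 0 (all genes: 51.3% above 0). This split was 38 and 10 without DKO replicate 2 from WT hosts, and 15 and 33 without DKO replicate 3. Groups did not overlap for 2 of 48 members (4.17%), against 20.8% of all genes. OT-II libraries from WT hosts serve in this and in the first comparison, so the Psmd5 values in both rest on the same 2 libraries.

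The difference between the host effects of both genotypes was tested as an interaction. Here 0 of 48 members reached an adjusted p of 0.05 by limma (all genes 0.0173%), 0 of 48 met both limits (all genes 0.0173%) and 0 had an unadjusted p under 0.05 (all genes 9.32%). Psmb9 had an interaction of 0.34 on the log2 scale (SE 0.24, 95% interval -0.20 to 0.88, adjusted p = 0.62), which ranged from 0.13 without OT-II replicate 1 to 0.55 without OT-II replicate 2 from WT hosts, and a difference between genotypes in the host effect of Psmb9 was not detected. Psme4 had the widest interval, with -0.49 (SE 0.32, adjusted p = 0.60), and ranged from -0.80 to -0.18 without DKO replicate 1 and 2 from RIPmOVA hosts, respectively. For Psmb5 the interaction was -0.24 (SE 0.19), for Psmb6 -0.10 (SE 0.14), for Psmb7 -0.14 (SE 0.15), for Psmb8 0.03 (SE 0.17) and for Psmb10 -0.10 (SE 0.25).

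**Figure D4:**
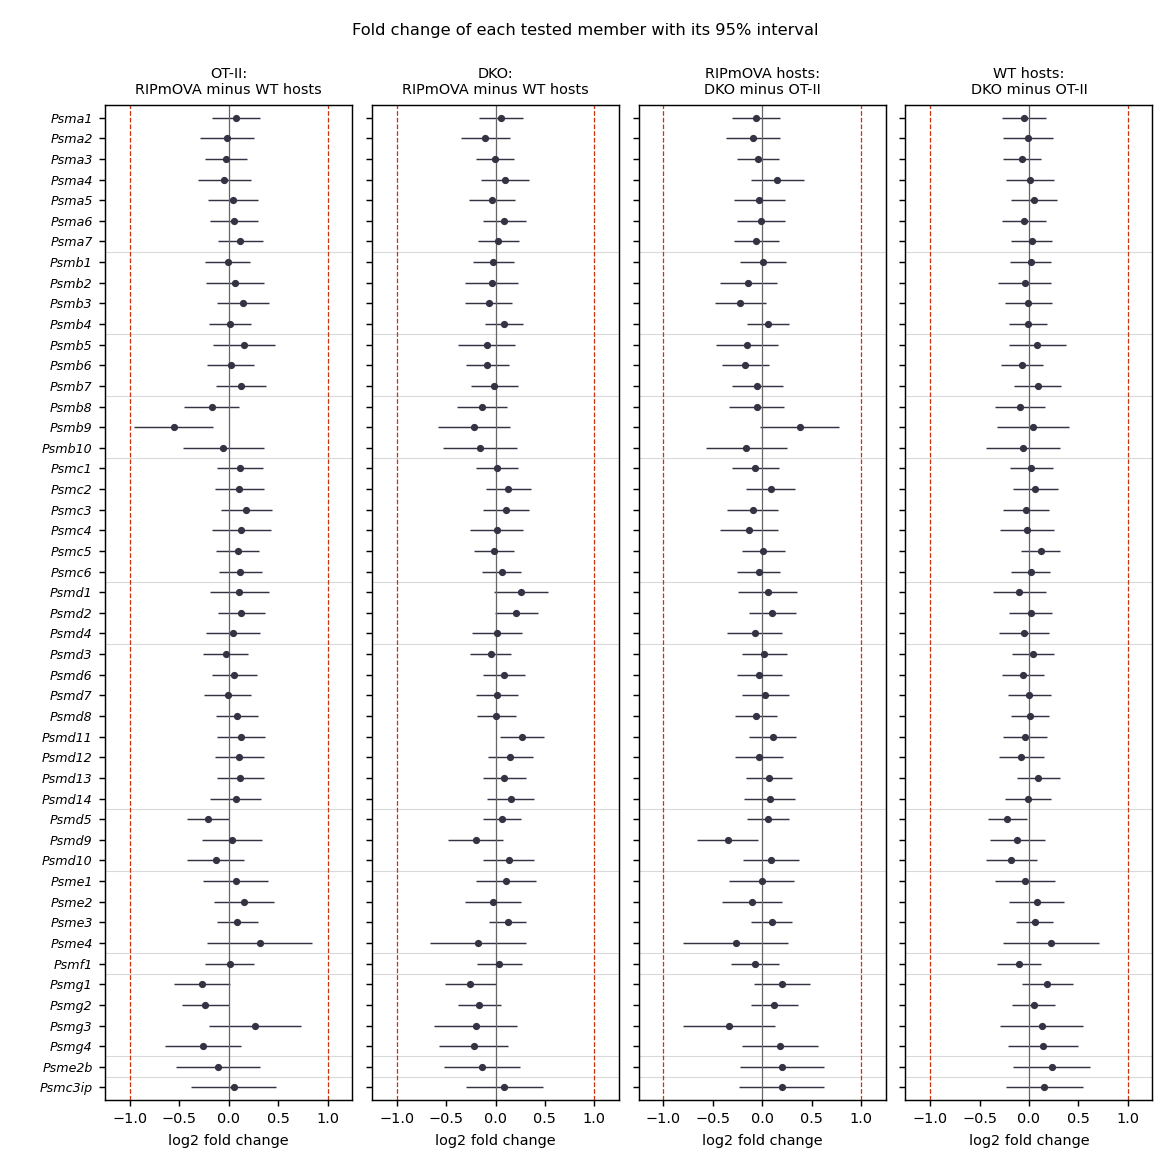
Log2 fold change (x axis) of each of the 48 tested members with its 95% interval from limma, in the 4 comparisons of hosts and genotypes, with members sorted by role. Dashed lines mark a 2-fold change. No interval reaches these lines, and Psmb9 in the first panel is the lowest, at -0.56 with an interval of -0.96 to -0.16.

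The 2 libraries of a mouse can also be read together. For Psmb8, Psmb9, Psmb10 and Psme1, the 2 libraries of WT host mouse 1 (OT-II and DKO) were the 2 highest of the 9. This was 4 of 48 members (8.33%) against 4.92% of all genes tested, and the reverse, both libraries the lowest, held for 0 members and 4.64% of all genes. The same 2 libraries were also the highest for the partner genes Irf1, Nfe2l2, Tap1, Tap2 and Tapbp. Irf1, an interferon-inducible transcription factor, was at 94.6 in OT-II and 84.98 RPKM in DKO of mouse 1, and at 66.6 to 82.1 RPKM in the other 7 libraries. The mouse was singled out after the values were seen, so these counts are a description, and no test was run on them.

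The precision of the members bounds how large a change could have been missed. In each of the 4 comparisons of groups, the 95% intervals of all 48 members lay within a 2-fold change in either direction, and within a 1.5-fold change for 44, 46, 42 and 46 members in the order given above. Intervals are not adjusted for the number of genes. For the interaction, 46 of 48 lay within 2 times and 38 within 1.5 times. The absolute log2 fold change was under 0.5 for 47 of 48 members in the first comparison and for 48 of 48 in the other 3, where this held for 85.0%, 81.5%, 78.2% and 92.8% of all genes. In bulk RNA of sorted cells, a different mixture of cells and a different amount of RNA per cell cannot be told apart.

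Partner genes of the proteasome (ubiquitin receptors, shuttle factors, ubiquitin and its E1 enzymes, the segregase Vcp with its cofactors, the regulators Nfe2l1 and Nfe2l2, and genes of peptide loading) were measured too, and all 35 in the table were tested. None of them reached an adjusted p of 0.05 by limma in any of the 5 comparisons, and 6, 5, 1, 1 and 0 had an unadjusted p under 0.05 (all genes 14.3%, 17.6%, 21.4%, 7.89% and 9.32%). The assembly factor Pomp was at 24.1 and 23.4 in OT-II and 22.8, 21.8 and 23.8 RPKM in DKO from WT hosts, and at 28.4 and 24.2 in OT-II and 23.0 and 21.8 RPKM in DKO from RIPmOVA hosts. Uba6, an E1 enzyme, had the lowest adjusted p of the list, with a log2 fold change between hosts of 0.57 in DKO (SE 0.15, adjusted p = 0.087). Its levels were 5.52, 7.24 and 6.76 RPKM in WT and 10.2 and 9.54 RPKM in RIPmOVA hosts. By contrast, Cd69, a marker of recent antigen recognition and one of the sorting markers, rose between hosts by 0.47 (SE 0.079, adjusted p = 0.022) in OT-II and by 0.78 (SE 0.072, adjusted p = 0.00077) in DKO by the same test. Cd69 was at 83.4 and 83.2 RPKM in OT-II from WT hosts, within the range of the ring subunits. Of the other 8 markers of CD4 single-positive cells, Thy1 fell between hosts in OT-II (log2 fold change -1.18, SE 0.22, adjusted p = 0.030 by limma) and none was called elsewhere.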

How the data were processed

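The members and lists were chosen with earlier results of these data known. RNA was amplified with SMART-seq v4, and libraries were made with Nextera XT. The authors mapped reads with STAR to mm10 with GENCODE vM17, removed duplicates with Picard, counted exon reads per Entrez gene and deposited RPKM. The STAR and Picard versions, and whether counting used strand, are not given in the sources used here. Removing duplicates lowers the values of highly expressed genes most. Whole reads were recovered from the RPKM steps, 15521120 to 25052091 per library, and 3 reads on a gene of 1 kb equal 0.12 to 0.193 RPKM.

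Genes that reached an RPKM of 1 in 2 or more libraries were tested on log2(RPKM + 0.5) with limma 3.58.1 in R 4.3.3, with group means over all 9 libraries, an intensity trend and Benjamini-Hochberg adjustment. Calls used an adjusted p limit of 0.05, alone or together with a change of 1 or more on the log2 scale in either direction. The fold change understates the change of low genes. The main fit was tried on 5 simulated data sets, with changes planted in genes drawn from all those tested. For log2 changes of 0.5, 1, 2 and 3, it found 19.6%, 56.8%, 84.8% and 92.8% at an adjusted p of 0.05. There were 7 false calls on average. The simulated spread was that of all genes tested and not that of the members alone. Values in every library are given for the catalytic subunits, Psmb11, Psma8, any member called, and the highest and lowest member of each role; Psmd2, Psmd5, Psmd11 and Uba6, among others, were named beside these for their values.

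Same-numbered libraries of a host type share a mouse per the labels. The correlation of their deviations from the group means was 0.0059 and -0.24 in WT mice 1 and 2 and -0.079 in the RIPmOVA mice. With 2 libraries in each RIPmOVA group, the deviations of these 2 mice mirror each other. The value is therefore the same in both by construction and counts as 1 value. Hosts differ in mouse, so host effects could not be paired.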

Additional observations from a re-analysis of the deposited data

How the results depend on the processing

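The count of members called was 0 in all 107 combinations of setting and comparison, and the lowest adjusted p of any member by limma was 0.053 (Psmb9, hosts in OT-II, without OT-II replicate 2 from WT hosts). With the mouse as a fixed replicate block, Psmb9 had an adjusted p of 0.095 between genotypes in RIPmOVA hosts, and this pairing changed no call of a member. No such value is given for hosts, since each mouse has 1 host type. With the mouse as a random block, Psmb9 had an adjusted p of 0.17 between hosts in OT-II. Of 791 alternative values of 37 named fold changes, 760 kept their sign. The cause of the turned signs was not tested. They were, between hosts in OT-II, Psmb10 (0.13 without both libraries of WT mouse 1) and, between hosts in DKO, Psmb5 (0.048) and Psmb7 (0.096) with background reads as a covariate and Psmb6 (0.00027) and Psmb7 (0.011) after quantile normalization. Between genotypes they were Psmb5 (0.044) and Psmb7 (0.11) in RIPmOVA hosts with that covariate, and Psmb5 (-0.065) and Psmb7 (-0.031) in WT hosts without mouse 1. In the interaction they were Psmb7 (0.042 with the covariate) and Psmb8 (-0.0071 after median-of-ratios rescaling). Leaving out 1 library at a time gave, between hosts in OT-II, -0.068 to 0.11 for Psmb6 and -0.24 to 0.13 for Psmb10, and -0.079 to 0.057 for Psmb7 between hosts in DKO. Between genotypes it gave -0.12 to 0.020 for Psmb7 in RIPmOVA hosts, and in WT hosts -0.031 to 0.20 for Psmb5, -0.021 to 0.19 for Psmb7, -0.19 to 0.012 for Psmb8, -0.17 to 0.25 for Psmb9 and -0.25 to 0.13 for Psmb10. In the interaction it gave -0.067 to 0.13 for Psmb8 and -0.29 to 0.088 for Psmb10. The mean ratio of Psmb9 to Psmb6 moved from 0.612 to 0.812 and that of Psmb8 to Psmb5 from 1.26 to 2.44 with the principal transcript, and that of Psmb10 to Psmb7 from 2.13 to 4.86 with the union of exons. The interferon-stimulated response core was in 3 members before the start (7.14%; all genes 8.18%), against 7 in the whole window (16.7%; all genes 9.76%).

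The counts over all genes moved more. At an adjusted p of 0.05, the count between genotypes in RIPmOVA hosts was 256, and 180 with the fixed block, 20 with background reads as a covariate, 398 without a filter, 407 after quantile normalization, 471 with only the libraries compared, and 23 to 486 without 1 library (lowest without OT-II replicate 1 from RIPmOVA hosts). Between hosts in OT-II it was 219, and 143 with the covariate, 106 with only the libraries compared, 80 without mouse 1 and 54 to 556 without 1 library. Between hosts in DKO it was 387, and 97 with the covariate. In WT hosts it was 8, and 2 with the fixed block and 192 without OT-II replicate 2, where the interaction had 205 in place of 2. Depth limits Psma8 and Psmb11, which had 0 to 18 reads. With 2 or 3 libraries a group, the 95% intervals of 2 to 6 members reached beyond a 1.5-fold change in each comparison of groups.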
